A study of Mus musculus with 9 samples.

Results

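The genes of integrins, laminins and collagens were taken from the GRO-seq table by symbol, as every gene whose symbol begins with Itga, with Itgb and a digit, with Lama, Lamb or Lamc and a digit, or with Col and a digit. The pattern took 86 of the 24505 genes of the table. They comprised 27 integrin genes (18 of α and 9 of β subunits), 11 laminin chains (5 α, 3 β and 3 γ), 44 collagen chains, and 4 genes whose symbols match although they encode no subunit (Col4a3bp, Itgb1bp1, Itgb1bp2 and Itgb3bp). Regions of H3K27me3 were tied to these genes by the gene name the authors gave each region.

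Nascent transcription was measured by GRO-seq, which sequences the RNA being made by engaged RNA polymerase in nuclei, in mini-gut (organoid) cultures of mouse duodenum. The cultures were RANKL, labelled as the M cell, which samples antigen across the gut lining; ENRI, labelled as the enterocyte; and WENRC, labelled as the stem cell of the intestine. Each had 2 libraries. The ENRI and WENRC libraries carry the number of the mouse, 1 or 2, while the RANKL libraries carry a library number only. The spread between the RANKL libraries may therefore be technical. The p-values of the main fit rest on a spread pooled over all cultures. Over all tested genes, the SD of the difference between the libraries of a culture was 0.22 in RANKL, 0.70 in ENRI and 0.42 in WENRC. H3K27me3, the repressive histone mark written by the Polycomb complex PRC2, came from ChIP-seq of RANKL (2 libraries that the authors pooled, 32.7 M tags) and of WENRC (1 library, 36.3 M tags). No genotype, strain, age or dose is given, and the culture names are not spelled out in the labels, so they serve here as names.

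Integrins are receptors of 1 α and 1 β subunit that tie the cytoskeleton to the matrix outside the cell, and the β subunit a cell makes sets which α subunits can reach its surface. Laminins are trimers of an α, a β and a γ chain that form, with the network of type IV collagen, the basement membrane on which the intestinal epithelium rests. Some integrins, αvβ6 and αvβ8 among them, bind latent TGF-β and release its active form, and fibrillar collagens such as type I are made mainly by mesenchymal cells.

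The GRO-seq unit is log2, after normalization between libraries by the authors, and a change is the difference of 2 group means on that scale. Genes entered the test if 2 or more libraries reached 10 on the linear scale, and a gene was called where limma's adjusted p was under 0.05 across all 16563 genes tested. How deeply the GRO-seq libraries were read is not known. Of the 86 genes, 73 passed that filter. All 10 genes of an M cell marker list were called higher in RANKL than in ENRI, all 8 of a stem cell list were called higher in WENRC than in ENRI, and 8 of 10 of an enterocyte list were called lower in WENRC than in ENRI. In addition, 6 of the 8 stem cell genes were called higher in RANKL than in ENRI, and 5 of the 10 enterocyte genes were higher in RANKL than in WENRC and 5 lower than in ENRI. All 9 general epithelial markers were above the filter, while 5 of them were called lower in RANKL than in ENRI. Of 15 mesenchymal markers, 8 were below the filter in every library (Dcn, Des, Foxf1, Lum, Pdgfra, Postn, Thy1 and Vim). The summed linear value of that list was 1410 and 1487 in RANKL, 842 and 881 in ENRI, and 849 and 668 in WENRC, and 2 of its genes, Cspg4 and Pdgfrb, were called higher in RANKL than in either other culture. In each RANKL comparison 1 gene of the list was also called lower, Tagln against ENRI (-0.67) and Gli1 against WENRC (-0.92), and the median change of its 7 tested genes was 0.22 and 0.04. Cspg4 had values of 8.20 and 8.37 in RANKL and of 4.25 to 4.57 in the other 4 libraries. Of 14 leukocyte markers, 6 were below the filter in every library, as were 2 of 8 endothelial markers (Cdh5 and Kdr). Their part in the results below was not tested. In these bulk libraries, fewer cells of a type and less RNA per cell cannot be told apart.

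The comparison of RANKL with ENRI sets M cell cultures against enterocyte cultures, and that of RANKL with WENRC sets them against stem cell cultures. In both, the integrin β8 gene Itgb8 and the transmembrane collagen gene Col13a1 stood far above the other genes, with Itgav (αv), Itga5 (α5) and Lamb3 (laminin β3) also higher in RANKL, and the collagen α5(IV) gene Col4a5 and the laminin γ1 gene Lamc1 lower. Against ENRI, 15 of the 73 tested genes passed, with RANKL above in 11 and below in 4, beside 20.9% of all tested genes called in either direction (10.4% higher and 10.5% lower). Against WENRC, 7 were called, 5 higher and 2 lower, beside 12.1% of all tested genes (8.53% higher and 3.62% lower). The median change was 0.16 against ENRI and 0.20 against WENRC, where that of all tested genes was -0.00 and -0.01. WENRC and ENRI, cultures of the same 2 mice, differed in 5 of the 73 genes, 2 higher and 3 lower in WENRC, beside 14.6% of all tested genes (4.85% higher and 9.74% lower). All 5 were integrin genes. The share of the 73 genes called was thus near the background against ENRI (20.5%) and below it against WENRC (9.59%) and between WENRC and ENRI (6.85%).

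By position alone, the RANKL libraries did not overlap the ENRI libraries in 36 of the 73 genes (64.7% of all tested genes did not) and the WENRC libraries in 46 (68.6%), and WENRC and ENRI did not overlap in 19 (58.5%). In the authors' deposited table, 9 of the 73 genes were higher and 5 lower in RANKL than in ENRI at an adjusted p under 0.05, beside 19.6% of all tested genes in either direction. There, 12 were higher and 6 lower than in WENRC, beside 16.7% and 11.1% (27.8% in all), and 0 higher and 4 lower in WENRC than in ENRI, beside 3.3% and 9.24% (12.5% in all). With the replicate number of the labels as a block in the limma fit (the mouse in ENRI and WENRC, a library number in RANKL), 10 genes were higher and 4 lower in RANKL than in ENRI (16.4% of all genes called), 6 and 1 than in WENRC (8.85%), and 0 and 3 in WENRC than in ENRI (9.09%, or 0.749% with only those 4 libraries, and then 0 of the 73).

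These counts depended on the libraries that entered the fit. Without RANKL 1 or without RANKL 2, the lone library being assumed to vary like the others, 1 gene was called higher and 0 lower against ENRI, beside 0.67% and 0.386% of all tested genes, and 0 against WENRC, where 0 of all genes were called by limma and 2702 and 2486 had an unadjusted p under 0.05. Only Itgb8 against ENRI was called whichever library was left out. Without ENRI 1, 20 genes were called higher and 9 lower against ENRI (42.1% of all tested genes), and without ENRI 2, 13 and 13 (26.8%). Against WENRC they were 13 and 6 without ENRI 1 (31.1%) and 13 and 7 without ENRI 2 (31.3%). Without WENRC 1 or WENRC 2, 3 genes were called higher and 2 lower against ENRI (11.6% of all either way), and 2 and 0 against WENRC (1.58% and 1.3%). Between WENRC and ENRI, 0 genes were called without any 1 of the RANKL or WENRC libraries, where limma called at most 39 of all 16563 genes and 3329 to 4078 had an unadjusted p under 0.05. There, 19 were higher and 9 lower without ENRI 1 (40.1%), and 2 and 13 without ENRI 2 (18.8%). With only the 4 libraries of a comparison in the fit, 5 of the 73 genes were called against ENRI (Itgb8, Itga5, Col13a1, Itga3 and Col4a5, beside 11.6% of all tested genes), 20 against WENRC (13 higher and 7 lower, beside 31.4% of all tested genes) and 0 between WENRC and ENRI, where 0 of all 16563 genes were called and 4074 had an unadjusted p under 0.05. The 10 genes lost against ENRI had adjusted p of 0.0523 to 0.0979 in that limma fit: Itgav, Itga1, Itga7, Itgae, Itgb3bp, Lamb3, Lamc1, Col6a6, Col11a2 and Col15a1. The 13 gained against WENRC included Itga1, Itga2, Itgb1, Itgb6, Lama3, Lama4, Col15a1 and Col17a1, which were higher, and Itgb4, Lamb1, Col4a2 and Col18a1, which were lower. Centring on the upper quartile moved the median change of all genes to -0.12 for RANKL over WENRC and to 0.10 for WENRC over ENRI. The share of all called genes that were higher went from 70.2% to 53.3% in the former (58.7% with quantile normalization) and from 33.2% to 54.1% in the latter (51.7%). The RANKL libraries combine the reads of a repeated sequencing according to the table's header, so that culture and sequencing cannot be told apart in either RANKL comparison.

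**Figure D1:**
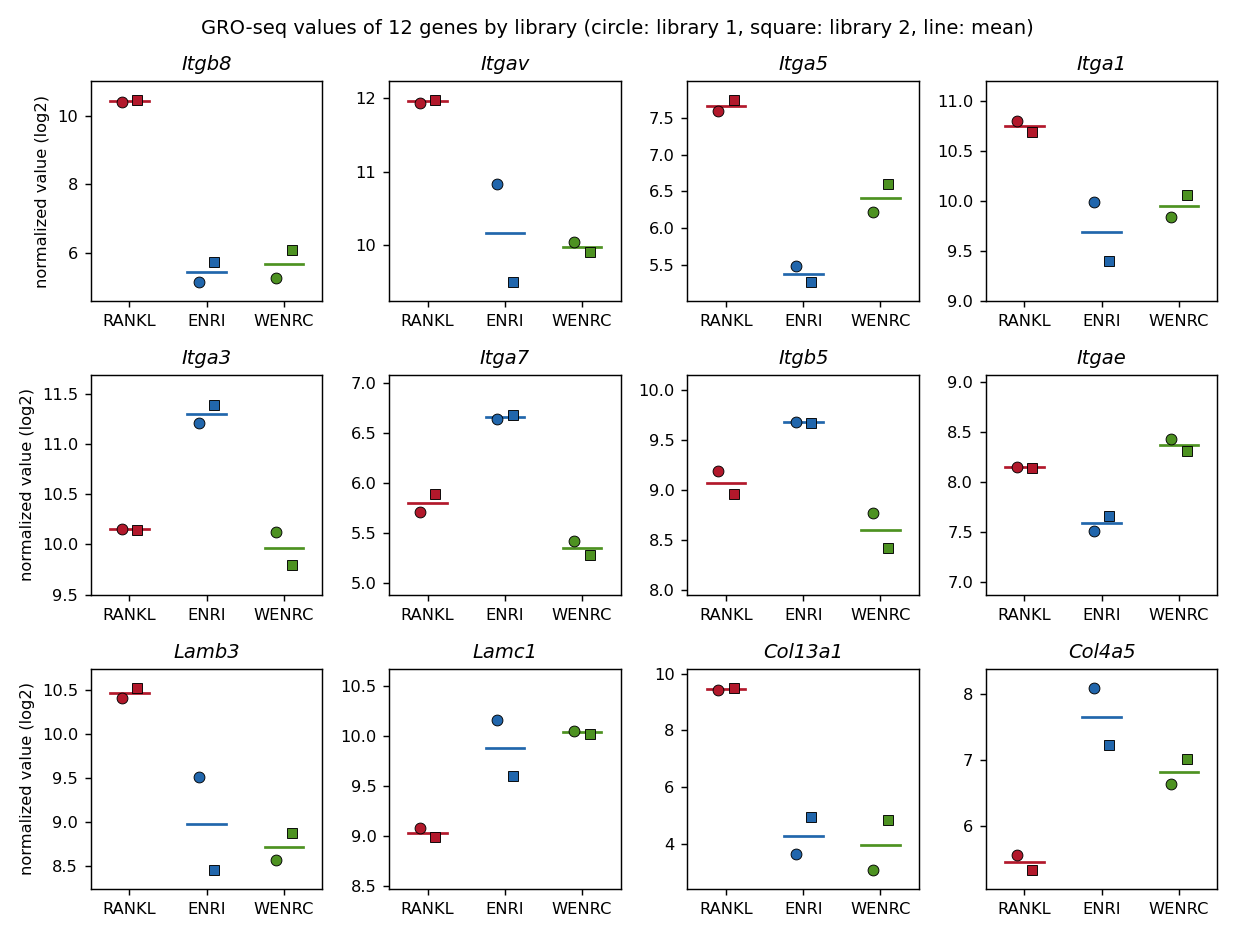
Normalized GRO-seq value (log2) of 12 integrin, laminin and collagen genes in each of the 6 libraries; circles are library 1, squares library 2 and lines the mean of the 2. Itgb8 and Col13a1 sit above 9 in both RANKL libraries and below 7 in the other 4, while Itga3, Itga7 and Itgb5 are highest in ENRI.

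Itgb8 (NM_177290, chromosome 12, 120401276 to 120476749 on mm9, minus strand) encodes the β8 subunit, whose partner is αv. It had values of 10.41 and 10.45 in RANKL, 5.15 and 5.76 in ENRI, and 5.26 and 6.10 in WENRC. The RANKL libraries were both far above the other 4, which overlapped among themselves. The mean change was 4.98 against ENRI (SE 0.34, 31.5-fold, limma adjusted p = 0.0019) and 4.75 against WENRC (SE 0.34, 26.9-fold, limma adjusted p = 0.0018). In the authors' deposited table the changes were 5.94 and 5.66. Against WENRC the adjusted p by limma was 0.0546 without RANKL 1 and 0.0543 without RANKL 2.

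Itgav (NM_008402, chromosome 2, 83564554 to 83647074), the gene of the αv subunit that pairs with β8, β6 and β5, had values of 11.94 and 11.98 in RANKL, 10.83 and 9.49 in ENRI, and 10.04 and 9.90 in WENRC. Both RANKL libraries were above all others, and the ENRI libraries lay on either side of WENRC. The change was 1.80 against ENRI (SE 0.41, 3.48-fold, limma adjusted p = 0.0295) and 1.99 against WENRC (SE 0.41, 3.98-fold, limma adjusted p = 0.031). With the fit restricted to the 4 libraries in question, the adjusted p by limma was 0.0719 against ENRI.

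Itga5 (NM_010577, chromosome 15, 103174718 to 103197222), the gene of the α5 subunit of the fibronectin receptor, had 7.59 and 7.74 in RANKL, 5.49 and 5.27 in ENRI, and 6.22 and 6.60 in WENRC. It was the only one of the 86 genes called in all 3 comparisons. The change was 2.28 over ENRI (SE 0.21, 4.87-fold, limma adjusted p = 0.0033), 1.25 over WENRC (SE 0.21, 2.38-fold, limma adjusted p = 0.019) and 1.03 for WENRC over ENRI (SE 0.21, limma adjusted p = 0.0313). The last of these had an adjusted p of 0.0538 with the replicate block. The gene contains the microRNA gene Mir6963.

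The sequences just upstream of these genes are shown because the H3K27me3 regions described further on lie beside the starts of Itgb8, Itga5 and Col13a1, and since PRC2 in mammals is known to be drawn to DNA rich in CG. Each run is the 250 bases before the start site of RefSeq on GRCm38.p6, from 5′ to 3′ on the gene's own strand, with every CG in capitals. The windows are chr12:119238277-119238526 for Itgb8, chr15:103366792-103367041 for Itga5 and chr10:61979109-61979358 for Col13a1, all on the minus strand. They hold 12, 11 and 24 CG.
Itgb8: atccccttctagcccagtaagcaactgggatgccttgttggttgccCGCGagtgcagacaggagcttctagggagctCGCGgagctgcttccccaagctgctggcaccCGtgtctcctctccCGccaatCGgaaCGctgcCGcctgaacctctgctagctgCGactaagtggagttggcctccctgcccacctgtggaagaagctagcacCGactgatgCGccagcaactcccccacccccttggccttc
Itga5: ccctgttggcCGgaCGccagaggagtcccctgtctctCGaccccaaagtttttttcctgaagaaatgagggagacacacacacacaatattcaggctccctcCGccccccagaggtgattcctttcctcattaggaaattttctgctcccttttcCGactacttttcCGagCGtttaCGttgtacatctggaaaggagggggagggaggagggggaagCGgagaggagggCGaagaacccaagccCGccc
Col13a1: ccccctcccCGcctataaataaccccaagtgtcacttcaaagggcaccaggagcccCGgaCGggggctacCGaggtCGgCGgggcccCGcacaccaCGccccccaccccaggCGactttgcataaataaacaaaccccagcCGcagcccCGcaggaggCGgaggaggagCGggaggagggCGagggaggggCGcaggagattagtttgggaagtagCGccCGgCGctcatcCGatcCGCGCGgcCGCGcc

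Of the 86 genes, 61 were found in the table of RefSeq promoters, with 67 promoters among them. Their last 250 bases before the start were searched on both strands for the letters of 3 factors of the M cell pathway. The core AGGAAGT of Ets factors, to which Spib belongs, was in 10 of the 67 promoters (14.9%) and in 7.69% of all 32851 promoters of the table. The NF-κB motif, with free letters in its middle, was in 0 of 67 (1.21% of all), and TNAAGGTCA of the ERR receptors was in 1 of 67, that of Col11a1 (1.14% of all). No promoter held 2 different motifs of these. The 10 with the Ets letters belonged to Itgav, Itga1, Itga11, Itgb6, Itgb2l, Lama2, Lamb2, Col4a4, Col6a1 and Col24a1, of which Itgav and Itga1 were called higher in RANKL than in ENRI. The promoter of Itgav (chr2:83724147-83724396, plus strand, 18 CG) is shown with the match in capitals, which reads AGGAAGT on the minus strand and begins 9 bases before the start. A match describes these letters only and is no evidence that a factor binds.
Itgav: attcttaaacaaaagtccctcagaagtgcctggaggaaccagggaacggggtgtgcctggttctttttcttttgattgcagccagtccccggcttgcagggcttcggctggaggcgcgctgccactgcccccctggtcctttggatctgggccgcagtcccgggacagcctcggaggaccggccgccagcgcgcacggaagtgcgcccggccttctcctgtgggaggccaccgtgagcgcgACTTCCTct

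Among the remaining α subunits, Itga1 and Itga2, the collagen-binding α1 and α2 genes, are 26040 bp apart on the same strand of chromosome 13. Itga1 had 10.79 and 10.69 in RANKL, 9.99 and 9.40 in ENRI, and 9.84 and 10.06 in WENRC, and was called higher in RANKL than in ENRI (change 1.05, SE 0.22, limma adjusted p = 0.0238). Pelo lies within Itga1 on the same strand, so reads of the 2 cannot be told apart. Itga2 had 12.28 and 12.33 in RANKL against 10.75 to 11.96 in the other 4 libraries. Its changes of 0.95 and 0.78 were close to those of Itga1 (1.05 and 0.79) but did not pass the test. With only the 4 libraries of RANKL and WENRC in the fit Itga2 passed against WENRC (limma adjusted p = 0.0021), as it did in the authors' deposited table (adjusted p = 3.28e-12).

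Itga3, the α3 subunit of a laminin receptor, was highest in ENRI. It had 11.22 and 11.39 in ENRI, 10.16 and 10.15 in RANKL, and 10.12 and 9.80 in WENRC. It was lower than in ENRI by 1.15 in RANKL (SE 0.16, limma adjusted p = 0.0082) and by 1.34 in WENRC (SE 0.16, limma adjusted p = 0.0103). Itga7, another laminin-binding subunit, followed the same order at a lower level, with 6.64 and 6.67 in ENRI, 5.70 and 5.89 in RANKL, and 5.42 and 5.28 in WENRC. It was lower than ENRI by 0.86 in RANKL (limma adjusted p = 0.0259) and by 1.31 in WENRC (limma adjusted p = 0.0137). Itga7 overlaps Mettl7b on the other strand. In both genes the ENRI libraries did not overlap the rest.

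Itgae, the αE subunit of the receptor by which intraepithelial lymphocytes hold E-cadherin, had 8.15 and 8.14 in RANKL, 7.52 and 7.67 in ENRI, and 8.43 and 8.31 in WENRC. It was higher than in ENRI by 0.56 in RANKL (limma adjusted p = 0.0463) and by 0.78 in WENRC (limma adjusted p = 0.0252). With the replicate block the adjusted p was 0.0872 and 0.0531. Ncbp3, with values of 8.54 to 9.35, ends 7016 bp before Itgae on the same strand, and Gsg2 lies within it on the other. The T cell genes Cd3e, Cd3g, Cd4 and Cd8a were below the filter in every library. Of the 8 leukocyte markers that were tested, Cd68 alone was called, higher in WENRC than in ENRI by 0.92 (limma adjusted p = 0.0174). The part of leukocytes in the Itgae values was not tested.

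Itga6, the α6 subunit of the hemidesmosome, had between 11.41 and 11.73 in all 6 libraries and was not called in any comparison. Per length of gene, Itga3 and Itga6 had the highest mean levels of the α subunits, 5.46 and 5.43 on the log2 scale per kb, ahead of Itga2 with 5.14. Among leukocyte subunits, Itgb2 and its α partners were low or below the filter, while Itgae was higher, as given above. Itga4 had values of 4.06 to 5.39. Itgax had 1.03 to 1.27, Itgad 2.80 to 3.22 and Itgb2, the β subunit they share, 2.75 to 3.11, while Itgal and Itgam passed the filter with group means of 3.76 to 4.01 and 5.0 to 5.58.

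Of the β subunits, Itgb1, which pairs with most α subunits, had 10.79 and 10.86 in RANKL, 10.76 and 9.88 in ENRI, and 10.51 and 10.40 in WENRC. Itgb4, the partner of α6, had 10.18 and 10.25 in RANKL, 11.06 and 10.45 in ENRI, and 10.68 and 10.54 in WENRC. Neither was called. Itgb5, another partner of αv, had 9.67 in both ENRI libraries, 9.18 and 8.96 in RANKL, and 8.77 and 8.42 in WENRC. It was lower in WENRC than in ENRI by 1.08 (SE 0.17, limma adjusted p = 0.017) and was not called in RANKL. Muc13, whose values were 11.59 to 13.63, ends 9738 bp before Itgb5 on the same strand.

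Itgb6, a further αv partner, which epithelia make, had 11.43 and 11.34 in RANKL, 11.51 and 8.61 in ENRI, and 10.71 and 10.90 in WENRC. The ENRI libraries were further apart than any 2 means, and the gene was not called. In the authors' deposited table it was higher in RANKL than in WENRC (0.64, adjusted p = 9.19e-05), and the limma fit to those 4 libraries called it too (adjusted p = 0.009). Itgb3, in group means 3.39 to 4.05, was near the filter. Itgb7, the partner of αE, had 7.59 and 7.85 in RANKL against 7.36 to 7.62 in the other libraries. Itgb2l, a gene related to Itgb2, had 9.49 to 10.67 and the highest mean level per kb of all integrin genes (5.58). It ends 177 bp from the end of Igsf5 on the other strand, whose values of 10.35 to 11.81 were higher in every library. The strand setting of the counts is not stated, so reads running past one end could be counted in the other gene.

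Adjacent genes of this kind were frequent. Of the 73 tested genes, 32 had another gene whose 3′ end lay within 10 kb outside them, and in 23 of these that gene had the higher mean value. In addition, 16 of the 73 overlapped another gene of the table. The part of such reads in the values was not tested, apart from the values given beside the genes named.

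**Figure D2:**
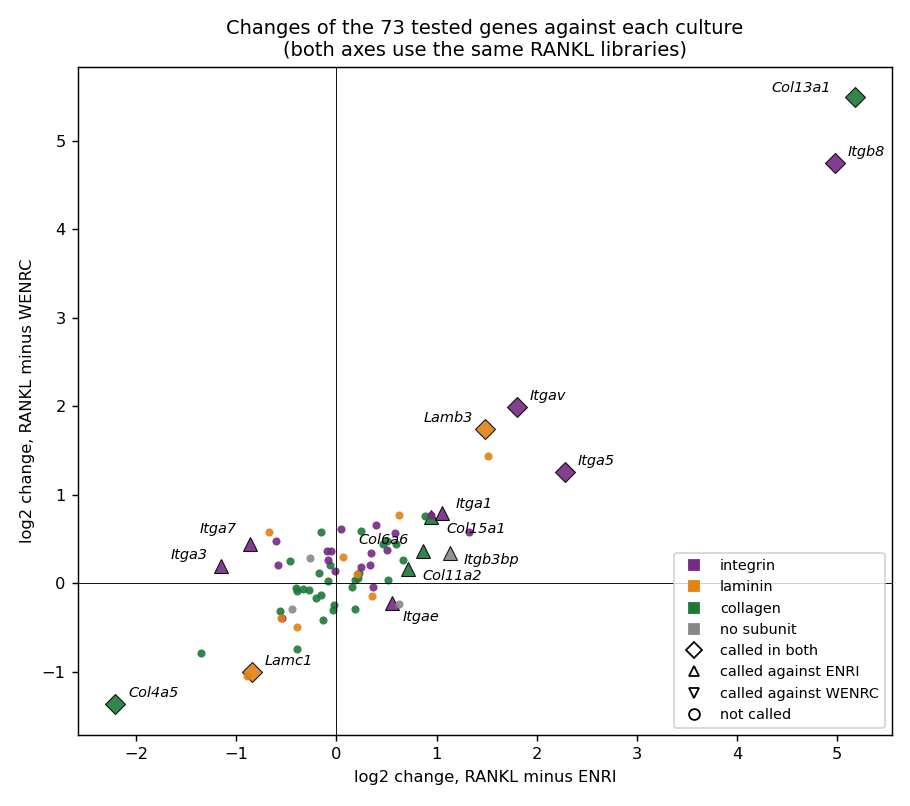
Log2 change of RANKL over ENRI (x axis) and over WENRC (y axis) for the 73 tested genes, coloured by family; large symbols mark genes called in one or both comparisons. Col13a1 (5.18 and 5.5) and Itgb8 (4.98 and 4.75) stand apart at the upper right, and most genes lie within 1 of 0 on both axes, which share the RANKL libraries.

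Laminin chains were transcribed unequally. Per kb, Lama5, the α5 chain of the adult intestinal basement membrane, had a mean level of 5.03 (log2), Lamb3 4.0, Lamb2 3.23 and Lamc1 2.82. Lama5 had 10.65 and 10.82 in RANKL, 11.71 and 9.04 in ENRI, and 10.80 and 10.94 in WENRC, and was not called. Lama1 and Lama2, the latter the chain of muscle basement membrane, had group means of 3.96 to 4.74 and 5.62 to 6.18, and Lamc3 of 3.30 to 3.51.

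Lamb3 (NM_008484, chromosome 1, 195128188 to 195170072) encodes the β3 chain, a part of the laminin of hemidesmosomes. It had 10.41 and 10.53 in RANKL, 9.51 and 8.46 in ENRI, and 8.57 and 8.87 in WENRC. The RANKL libraries were above the rest. The change was 1.49 over ENRI (SE 0.34, 2.80-fold, limma adjusted p = 0.0307) and 1.75 over WENRC (SE 0.34, 3.36-fold, limma adjusted p = 0.027). Camk1g, whose end lies 2468 bp from that of Lamb3 on the other strand, was also higher in RANKL, with 8.53 and 8.47 against 5.51 to 7.43.

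Lama3, the α3 chain of the same laminin, had 8.65 and 8.42 in RANKL, 10.15 and 8.26 in ENRI, and 8.09 and 7.82 in WENRC. The ENRI libraries enclosed the RANKL libraries, and the gene was not called. With only the 4 libraries of RANKL and WENRC in the fit, Lama3 was called higher in RANKL.

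Lamc1 (NM_010683, chromosome 1, 155066052 to 155179916), the γ1 chain found in most laminins, had 9.08 and 8.99 in RANKL, 10.16 and 9.60 in ENRI, and 10.05 and 10.03 in WENRC, all RANKL values being below all others. It was lower in RANKL by 0.84 than in ENRI (SE 0.20, limma adjusted p = 0.0344) and by 1.0 than in WENRC (SE 0.20, limma adjusted p = 0.0301). Lamb1, the β1 chain that joins γ1 in the common laminins, had 7.92 and 7.58 in RANKL against 7.62 to 8.68 elsewhere and was not called.

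Lama4, the α4 chain best known from vessels, had 6.14 and 6.45 in RANKL, 4.18 and 5.39 in ENRI, and 4.23 and 5.48 in WENRC. Its change was 1.51 over ENRI (limma adjusted p = 0.0978) and 1.44 over WENRC (limma adjusted p = 0.14). In ENRI and in WENRC the library of mouse 2 was the higher. With the replicate block the adjusted p by limma was 0.0303 and 0.0467, but that block gives the RANKL libraries numbers that are tied to no mouse. The endothelial markers Cdh5 and Kdr were below the filter in every library. Vwf was the only 1 of the 6 tested endothelial markers that was called, being higher in RANKL than in ENRI. The median change of those 6 was 0.23 over ENRI and 0.06 over WENRC.

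**Figure D3:**
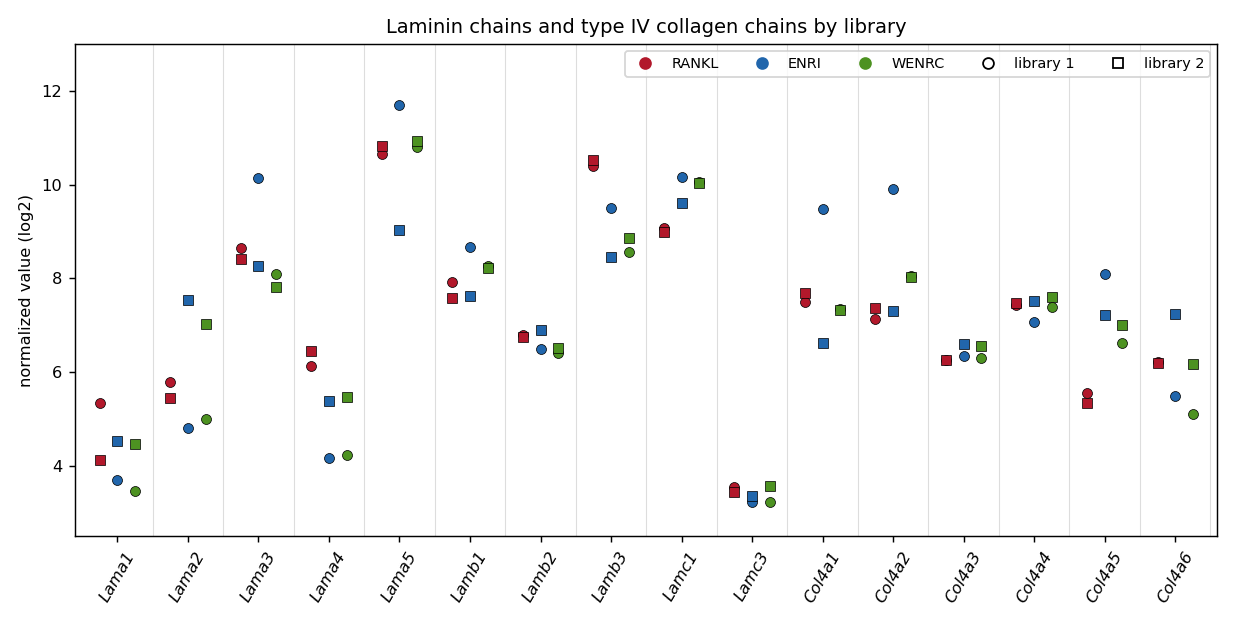
Normalized GRO-seq value (log2) of 10 laminin chains and the 6 chains of type IV collagen in each library. Lamb3 is highest and Lamc1 lowest in RANKL, and for Lama5, Col4a1 and Col4a2 the ENRI libraries differ by more than 2 units.

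Of 34 tested collagen genes, 5 were called against ENRI, 2 against WENRC and 0 between WENRC and ENRI (4 had an unadjusted p under 0.05 there). The shares of all tested genes called were 20.9%, 12.1% and 14.6%, each above that of the collagens. Type IV collagen is coded by pairs of genes that start head to head. Col4a1 and Col4a2, the chains of every basement membrane, overlap by 21 bp at their starts. Col4a1 had 7.5 and 7.69 in RANKL, 9.48 and 6.63 in ENRI, and 7.36 and 7.33 in WENRC. Col4a2 had 7.13 and 7.38 in RANKL, 9.91 and 7.31 in ENRI, and 8.05 and 8.03 in WENRC. In both genes ENRI 1 was above all other libraries and ENRI 2 was more than 2 units below it, and neither gene was called. Col4a3 and Col4a4, 72 bp apart, kept group means of 6.27 to 6.47 and 7.29 to 7.49 and were not called.

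Col4a5 (NM_007736, chromosome X, 137909962 to 138123778) had 5.56 and 5.34 in RANKL, 8.09 and 7.22 in ENRI, and 6.63 and 7.01 in WENRC. All RANKL values were below all others. It was lower in RANKL by 2.21 than in ENRI (SE 0.33, 4.62-fold, limma adjusted p = 0.0099) and by 1.37 than in WENRC (SE 0.33, 2.58-fold, limma adjusted p = 0.0484). Against WENRC the adjusted p was 0.0652 with the replicate block. Col4a6, whose start is 1343 bp from that of Col4a5 on the opposite strand, had 6.23 and 6.19 in RANKL, 5.49 and 7.24 in ENRI, and 5.10 and 6.17 in WENRC, with changes of -0.16 and 0.58 that did not pass. The end of Atg4a lies 1133 bp from that of Col4a6 on the other strand. Atg4a had 8.66 and 8.52 in RANKL, 7.12 and 7.68 in ENRI, and 6.61 and 7.01 in WENRC. Whether the changes of Col4a5 and Col4a6 differ was not tested. Both genes are X-linked, and the libraries differed in genes that mark sex. Xist had 11.94 and 12.18 in RANKL, 10.90 and 11.60 in the libraries of mouse 2, and 4.52 and 5.42 in those of mouse 1, where the Y-linked Ddx3y had 8.50 and 8.29 against 3.28 to 3.60 elsewhere. In both genes the RANKL libraries were nearer to those of mouse 2. Col4a5 had 7.22 in ENRI and 7.01 in WENRC of mouse 2, and 5.56 and 5.34 in RANKL, whose libraries are tied to no mouse. The part of sex in the Col4a5 values was not tested.

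Col18a1, a basement membrane collagen with heparan sulphate chains, had 8.37 and 8.17 in RANKL, 9.46 and 7.87 in ENRI, and 8.96 and 9.06 in WENRC. Col15a1, its relative, had 5.11 and 5.2 in RANKL against 4.04 to 4.60 elsewhere and was called higher than in ENRI (change 0.95, limma adjusted p = 0.0342). Col7a1, which forms anchoring fibrils, had group means of 4.60 to 5.10 and was not called.

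Col13a1 (NM_007731, chromosome 10, 61300982 to 61441856, minus strand) encodes a collagen that spans the cell membrane and is known from cell contacts such as the neuromuscular junction. It had 9.42 and 9.5 in RANKL, 3.63 and 4.93 in ENRI, and 3.08 and 4.84 in WENRC. The RANKL libraries were far above the other 4, in which the library of mouse 2 was the higher each time. The change was 5.18 over ENRI (SE 0.65, 36.2-fold, limma adjusted p = 0.0062) and 5.5 over WENRC (SE 0.65, 45.2-fold, limma adjusted p = 0.0074), the largest of the 73 genes. The authors' deposited table gave 6.36 and 6.71. Without RANKL 1 or RANKL 2 the adjusted p was 0.0696 and 0.0818 over ENRI and 0.0949 and 0.11 over WENRC.

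The other transmembrane collagens did not pass the test on all 6 libraries. Col17a1, the hemidesmosome collagen, had 9.35 and 9.51 in RANKL, 8.93 and 8.16 in ENRI, and 8.80 and 8.55 in WENRC. With only the RANKL and WENRC libraries in the fit it was called higher in RANKL (limma adjusted p = 0.0053), as in the authors' deposited table (0.89, adjusted p = 0.000336). Its end lies 1095 bp from that of Slk on the other strand, which had 12.27 and 12.42 in RANKL and 10.37 to 11.52 elsewhere. Col23a1 and Col25a1 had group means of 6.85 to 7.03 and 5.51 to 5.91.

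Of the 11 fibrillar collagens, which form the fibres of connective tissue, 6 passed the filter. Col1a1 had 2.13 to 2.46, Col1a2 1.27 to 1.47, Col3a1 1.84 to 2.37, Col2a1 2.3 to 2.64 and Col5a3 1.80 to 2.10, all below the filter in every library, as were Col6a1, Col6a2 and Col6a3, the chains of type VI collagen (-0.97 to 2.29 in all). With Col16a1, Col9a1, Itgad, Itgax and Itgb2, these made up the 13 genes that were not tested. Of the fibrillar chains tested, Col11a2 alone was called, with 7.35 and 7.58 in RANKL, 6.83 and 6.69 in ENRI, and 7.25 and 7.37 in WENRC. Its change over ENRI was 0.71 (limma adjusted p = 0.0387, or 0.0676 with the replicate block). Rxrb ends 735 bp before Col11a2 on the same strand and had 7.34 and 7.61 in RANKL, 6.88 and 6.74 in ENRI, and 7.23 and 6.97 in WENRC.

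Among the 15 other collagens tested, Col6a6 was called higher in RANKL than in ENRI, by 0.86 (limma adjusted p = 0.018), with 7.66 and 7.82 against 6.83 and 6.93, and 7.38 in both WENRC libraries. The end of Pik3r4 lies 1762 bp from that of Col6a6 on the other strand. Pik3r4 had 8.51 and 8.63 in RANKL, 9.09 and 8.34 in ENRI, and 8.63 and 8.21 in WENRC. Col20a1 had the highest level per kb of the collagens (3.50), with 7.89 to 8.80, and was not called. Arfgap1, at 8.73 to 9.15, ends 4011 bp before it on the same strand. Of the 4 genes that encode no subunit, Itgb3bp, which codes for a nuclear protein of the centromere named for an interaction with β3 integrin, was called higher in RANKL than in ENRI (8.89 and 8.97 against 8.14 and 7.46, with 8.59 and 8.6 in WENRC, change 1.13, limma adjusted p = 0.0241). Alg6, whose end lies 1942 bp from its own, had 9.35 and 9.44 in RANKL, 8.65 and 8.19 in ENRI, and 9.22 and 8.94 in WENRC. The others were not called.

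The 2 ENRI libraries were apart by more than 1 log2 unit in 28 of the 73 genes, against 11.1% of all tested genes, the WENRC libraries in 12 (3.41% of all) and the RANKL libraries in 1, Lama1 (0.139% of all). In 12 genes ENRI 1 was the higher, among them Lama3, Lama5, Lamb1, Lamb3, Col4a1, Col4a2, Col18a1, Itga2, Itga9, Itgav and Itgb6. The list holds both common type IV chains. Examples are Itgb6 with 11.51 and 8.61, Col4a1 with 9.48 and 6.63, and Lama5 with 11.71 and 9.04. Over all tested genes, ENRI 1 was the higher by more than 1 in 4.99% and ENRI 2 in 6.10%. Deviations of same-numbered ENRI and WENRC libraries correlated at 0.41 over those genes. In 16 of the 73 genes ENRI 2 was the higher, and in all 16 WENRC 2 was also above WENRC 1. The median of their WENRC means was 4.97 and their median length was 195060 bp, and 15 of the 16 were longer than 100 kb. Lama2 (635656 bp) had 4.81 and 7.55 in ENRI and 4.99 and 7.04 in WENRC, and Col24a1 had 4.28 and 6.59, and 4.20 and 5.98. Of all 895 tested genes longer than 100 kb with a RANKL mean under 7, ENRI 2 exceeded ENRI 1 by more than 1 in 57.0%, beside 54.2% of the 24 integrin, laminin and collagen genes of that kind. The summed linear value of the enterocyte list was 51810 in ENRI 1 and 91910 in ENRI 2. The ENRI libraries come from different mice, which also differed in Xist and Ddx3y as given above, and the part of either in these differences was not tested.

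**Figure D4:**
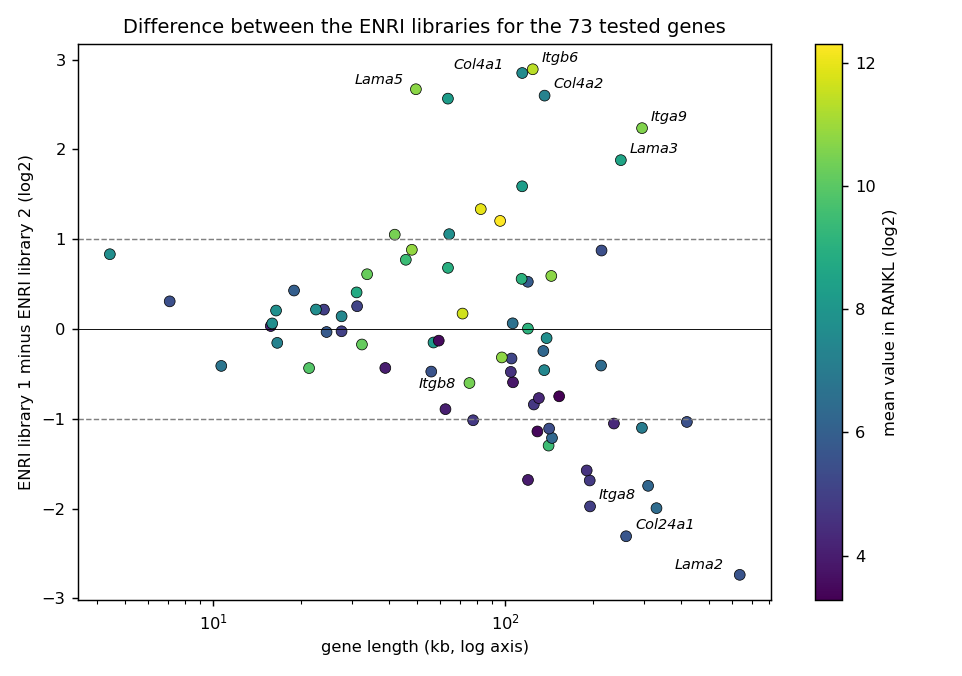
Difference between ENRI library 1 and ENRI library 2 (log2) against gene length (kb, log axis) for the 73 tested genes, coloured by the mean value in RANKL; dashed lines mark a difference of 1. Itgb6, Col4a1 and Lama5 lie above the upper line, and 15 of the 16 genes below the lower line are longer than 100 kb.

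H3K27me3 was compared between pooled RANKL and WENRC through 2 sets of regions, those called by the authors as higher in RANKL and those higher in WENRC, each with the other culture as control. Folds are the authors' ratio of tags, and with no replicate values they have no replicate check. A region counts as near a gene when its centre is within 5 kb of the nearest annotated start. Near regions with more H3K27me3 in RANKL were found at 36 of the 86 genes (41.9%), beside 19.1% of all 24505 genes. Among genes at least as long as the median gene of the set (75300.5 bp), the shares were 19 of 43 for the set and 31.1% for all genes. Collagens had most of them, 25 of 44 (56.8%), against 5 of 11 laminins, 6 of 27 integrins and 0 of the 4 genes that are no subunit. Within 1 kb of a start the count was 19 genes, beside 10.5% of all genes. The 60 near regions were part of 300 regions tied to 54 of the genes, with a median fold of 2.78, beside 2.92 over all 35798 regions. At any distance 33.7% of all genes had one, and over the gene body 49 of the 86 and 20.7% of all genes. Among genes at least as long as the median gene of the set, the body shares were 30 of 43 and 42.7%.

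The collagens with such regions included 8 of 11 fibrillar genes: Col1a1, Col1a2, Col2a1, Col5a1, Col5a3, Col11a2, Col24a1 and Col27a1. At Col1a1, 4 regions lay near the start, the longest with 241 tags in RANKL and 117 scaled tags in WENRC (2.06-fold). The regions that overlapped the gene added up to 61.3% of its length, any parts beyond its ends included. At Col1a2, 1 region lay 54 bp from the start with 43 and 16.2 tags (2.65-fold). Col5a3 had 308 and 123 tags over 5364 bp (2.5-fold). Of the 13 genes below the filter, 7 had a near RANKL-higher region and 0 a near WENRC-higher one, beside 21.3% and 6.33% of all genes below it. Of the 73 that passed, 29 and 9 had one, beside 18.0% and 5.01% of all that passed.

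Of the 60 near regions, those at fold 4 or more belonged to 5 genes, beside 3.04% of all genes: Col11a2 (5.92), Col6a3 (5.18), Col18a1 (4.31), Col6a1 (4.07) and Col9a3 (4.05). The remaining collagens with near regions were Col4a2, Col7a1, Col8a1, Col8a2, Col9a2, Col12a1, Col13a1, Col15a1, Col16a1, Col23a1, Col25a1, Col26a1 and Col6a5, with folds of at least 2. Among laminins, Lamc1 had 20 and 6.30 tags in its first intron (3.17-fold). Lama1, Lamb1 and Lamc3 had near regions too. Among integrins these were Itga2b, Itga4, Itga7, Itga9, Itga11 and Itgb3, none of which was called in RANKL against WENRC.

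Regions with more H3K27me3 in WENRC were tied to 42 genes at any distance (24.0% of all genes) and overlapped the body of 34 (9.82% of all genes). Among genes at least as long as the median gene of the set, they overlapped 28 of 43, beside 33.6% of all such genes. Near a start, these longer genes had one in 6 of 43, beside 9.11%. Over genes of any length, near WENRC-higher regions were found at 9 of the 86 (10.5%), beside 5.44% of all genes. At fold 4 or more they were found at 2, Itgb8 and Lama4, beside 1.37%. The 9 were Itga5, Itga9, Itgb2l, Itgb8, Lama4, Col17a1, Col24a1, Col27a1 and Col6a5. At Itgb8, a region of 924 bp in the first intron (chromosome 12, 120475359 to 120476283 on mm9), centred 928 bp after the start, held 36 scaled tags in WENRC and 8 tags in RANKL (4.5-fold), and a region of 500 bp at -1358 bp from the start held 23.4 and 7 (3.34-fold). At Itga5, a region at -749 bp from the start held 21.6 and 7 tags (3.09-fold). At Lama4 it was 16.2 and 4 tags at -3959 bp from the start (4.05-fold), and at Col17a1 30.6 and 8 tags in the first intron (3.83-fold). Itga9, Col24a1, Col27a1 and Col6a5 had near regions of both kinds, at different distances or at a different start.

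Set against transcription, Itgb8 and Itga5 had both less H3K27me3 beside their start and a higher GRO-seq value in RANKL than in WENRC. Col13a1 did not follow that order. It had 2 near regions with more H3K27me3 in RANKL, 148 and 63.0 tags at -1367 bp from its start (2.35-fold) and 88 and 36.9 tags in its first intron (2.38-fold), and 14 RANKL-higher and 5 WENRC-higher regions overlapped its body, while its GRO-seq value had the largest rise of the 73 genes in RANKL. Lamc1 had more H3K27me3 and a lower value in RANKL. Itgav and Lamb3 had no region of either kind tied to them. Of the 9 genes with a near WENRC-higher region, all tested, 2 passed the test of RANKL over WENRC upward and 0 downward (median change 0.62). The RANKL mean was above the WENRC mean in each of the 9, although the libraries overlapped in some. Of these 9, 4 also had a near RANKL-higher region. The share of all tested genes with the higher mean in RANKL was not counted. For the 73 genes the median change of RANKL over WENRC was 0.20. Of all tested genes, 8.53% passed upward and 3.62% downward in that comparison. Of the 29 tested genes with a near RANKL-higher region, 1 was called higher and 1 lower (median 0.11), and of the 39 tested with neither, 2 were called higher and 1 lower (median 0.19).

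The promoters of the 25 matched genes with a near RANKL-higher region held a median of 16 CG in 300 bases around the start, and those of the 36 without held 11.5. Over all genes of the table the medians were 16 with such a region and 7 without. The 8 matched genes of the set with a near WENRC-higher region had a median of 10. No near region of either kind lay on the X chromosome, where 8 regions of each kind overlapped Col4a5, and 27 with more H3K27me3 in RANKL and 3 with more in WENRC overlapped Col4a6.

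**Figure D5:**
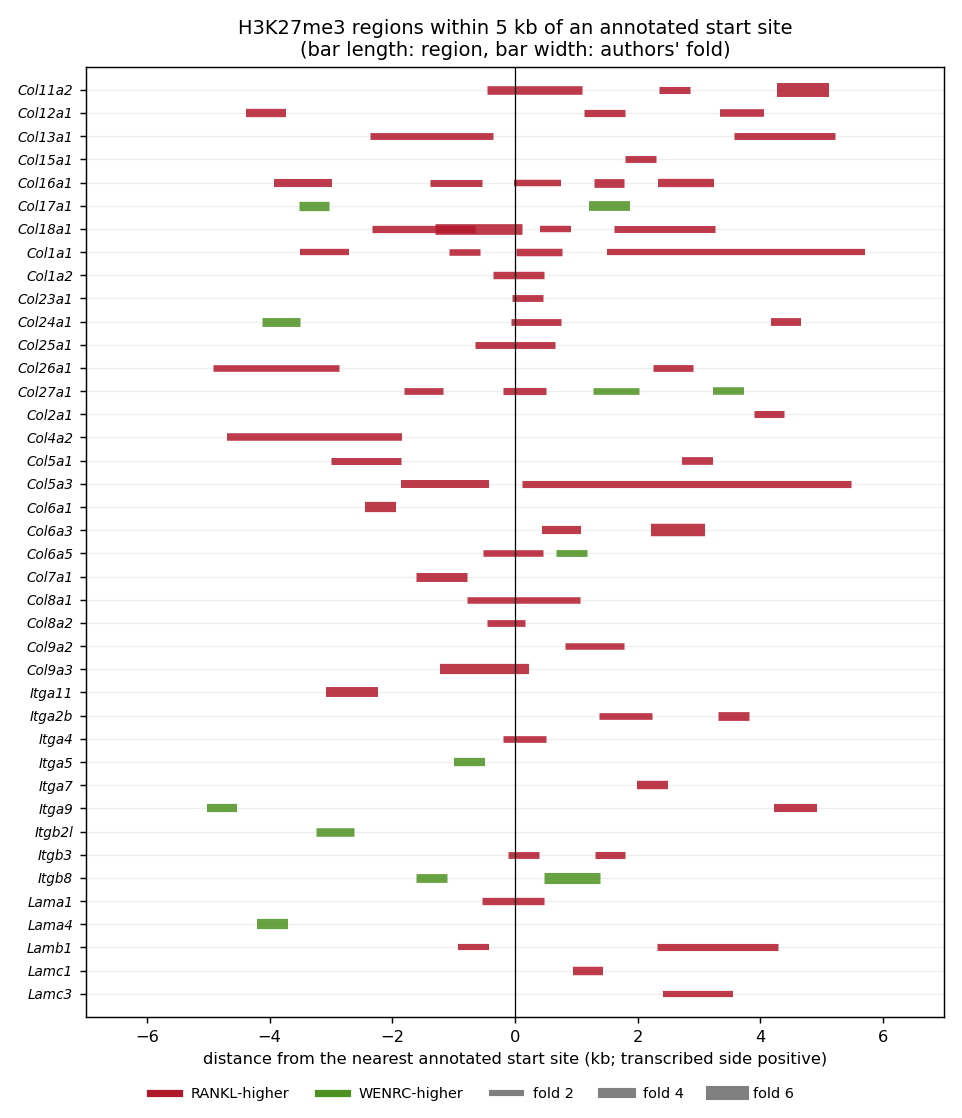
Position of the authors' H3K27me3 regions centred within 5 kb of the annotated start nearest to it (kb, transcribed side positive), by gene, drawn to length, with bar width by fold; red is higher in RANKL and green higher in WENRC. Red bars mark 25 collagens, and Itgb8, Itga5, Lama4, Itgb2l and Col17a1 carry green bars only.

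Other genes of matrix adhesion were taken from lists of names, without regard to the pattern of symbols. The counts of each list can be read against the 10.4% of all tested genes called higher and 10.5% called lower in RANKL than in ENRI, 8.53% and 3.62% against WENRC, and 4.85% and 9.74% in WENRC against ENRI. Of 17 tested genes of further basement membrane and matrix proteins, 1 was called higher and 4 lower in RANKL than in ENRI, and 0 and 1 against WENRC. Nid1 and Nid2, the nidogens that link laminin to type IV collagen, were lower in RANKL than in ENRI, by 2.47 and 0.82 (limma adjusted p = 0.0035 and 0.0174), and Hspg2, the proteoglycan perlecan, was higher by 0.71. Of 13 further matrix receptors, 3 were called higher and 2 lower against ENRI and 1 and 2 against WENRC. Among them Cd47, a partner of αv integrins, was higher in RANKL by 1.24 and 1.46, and the syndecan Sdc1 lower by 1.25 and 1.35. Of 25 integrin adaptors and kinases, 0 were called higher and 3 lower against ENRI, led by Dst (-2.13) and Ptk2b (-1.43), and 2 and 1 against WENRC, where the kinase Fyn was lower by 1.65 and Src higher by 0.90.

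Of 20 enzymes and chaperones that modify collagens and laminins, 2 were called higher and 5 lower in RANKL than in ENRI, and 2 and 3 against WENRC. The lysyl hydroxylases Plod1 and Plod2 were lower than in ENRI by 2.20 and 1.5, P4hb by 2.04, and Crtap, part of the prolyl 3-hydroxylase complex, was higher by 2.25. Of 15 matrix proteases and inhibitors, 5 were called higher and 0 lower against ENRI, and 3 and 0 against WENRC. Mmp7, matrilysin of the intestinal epithelium, was higher by 2.24 and 1.25, and the membrane-bound Mmp17 and Mmp15 by 1.40 and 1.33 against ENRI and 1.19 and 1.53 against WENRC. Between WENRC and ENRI, 1 adaptor or kinase was called higher and 7 lower, with Fyn higher in WENRC by 1.41 and Plec, which anchors keratin to α6β4, lower by 1.31.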

How the data were processed

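GRO-seq was measured in 6 libraries and H3K27me3 in pooled RANKL and in WENRC. Per the file headers, the authors summed GRO-seq reads over whole RefSeq genes of mm9 with HOMER, and the submitters' processing notes name Bowtie2 2.3.4.1, HOMER and DESeq2. The GRO-seq table as deposited holds log2 values. Their shape is that of a regularized log, which was inferred from the values. No strand setting is stated. The authors' deposited table also gives log2 fold changes and p-values for each pair of cultures. Per the file headers, the H3K27me3 tables give the tag count of a region, the scaled tag signal of the other culture, and their ratio (fold), for regions called at a fold of 2 or more. H3K27me3 replicates were pooled by the authors, so no test was made.

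Here, limma 3.58.1 in R 4.3.3 was fitted to the log2 values of all 6 libraries as 3 group means, with a variance trend. Genes with at least 2 libraries at 10 or more on the linear scale entered (16563), p-values are two-sided, and Benjamini-Hochberg adjustment ran over all of them. The fit was tested on simulated data. Library depth is not known, and 2 libraries a group limit the precision. Mouse numbers pair ENRI with WENRC: deviations of same-numbered libraries correlated at 0.41 over 16563 genes. RANKL numbers did not pair with either (-0.20 with ENRI and -0.32 with WENRC). Alternatives were the replicate number of the labels as a block (the mouse in ENRI and WENRC, a library number in RANKL), only the libraries compared, other scaling, other filters, no variance trend, and each library left out. Regions were joined by gene name, and those within 5 kb of a start counted. Python 3.11.15 was used for the rest.

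The genes and gene lists were chosen with earlier results of these data known. Genes named with values are those called in any comparison and a list of subunits of epithelia, leukocytes and stroma, whether called or not. Other genes are named for a near H3K27me3 region, not all of them with GRO-seq values. From the other lists, some of the called genes are named, and these are not always the ones with the largest changes. Promoters are from RefSeq on GRCm38.p6, while regions and genes are on mm9, and no coordinates were converted. The values of 1 gene of the set are not reported here, and counts over the set include it.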

Additional observations from a re-analysis of the deposited data

How the results depend on the processing

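Counts of the 73 genes called are given here in the order higher and lower. With only the 4 libraries compared in the limma fit they were 3 and 2 for RANKL over ENRI (11 and 4 with all 6), 13 and 7 for RANKL over WENRC (5 and 2), and 0 and 0 for WENRC over ENRI (2 and 3), and the cause was not tested. With each library left out in turn, the counts ranged from 1 to 20 and from 0 to 13 for RANKL over ENRI, from 0 to 13 and from 0 to 7 for RANKL over WENRC, and from 0 to 19 and from 0 to 13 for WENRC over ENRI, while the share of all tested genes called ranged from 0.386% to 42.1%, from 0.0% to 31.3% and from 0.0% to 40.1%. With the replicate block they were 10 and 4, 6 and 1, and 0 and 3, so that Col11a2 and Itgae (RANKL over ENRI), Col4a5 (RANKL over WENRC), and Itga5 and Itgae (WENRC over ENRI) were lost and Lama4 was gained in both RANKL comparisons. No other call changed with the block. The block with only the 4 libraries of WENRC and ENRI gave 0 and 0. Upper quartile centring gave 5 higher in WENRC than in ENRI, and no filter on low values gave 1 lower in RANKL than in WENRC. Of the 27 called single-gene results, 11 stayed called in every setting other than leaving out a library, 1 (Itgb8, RANKL over ENRI) in all settings, and 0 reversed. At an authors' fold of at least 4, genes with a near H3K27me3 region numbered 5 (RANKL higher) and 2 (WENRC higher). For WENRC-higher regions the count was 42 at any distance and 34 over the gene body, against 9 near a start.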
